A study of Mus musculus with 13 samples.

Results

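Keratins are the intermediate filament proteins of epithelial cells. Each filament is built from type I and type II keratins in pairs, and the pair changes with layer and lineage: Krt5 with Krt14 in basal cells, Krt1 with Krt10 in the layers above them, Krt8 with Krt18 in simple epithelia, and sets of their own in the companion layer, the inner root sheath (IRS) and the shaft of the hair follicle. Basal cell carcinoma (BCC) is a skin tumor of basal type driven by Hedgehog signaling, and its cells are known for basal and follicular keratins. The keratin genes analysed here were all rows of the expression table whose symbol is Krt followed by a number and at most 1 letter, with a value in every tumor. Of 54 keratin rows, 44 met this rule (21 type I and 23 type II), out of 16687 genes with a value in all 13 tumors, and 36 of the 44 passed the filter on low counts. They were sorted by known site of expression into epidermal (18 genes, of which 3 basal, 8 suprabasal, 5 of stress or appendages and 2 mucosal or corneal), companion or IRS (6), simple (6), hair-shaft (12) and other keratins (2).

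Poly(A) RNA was sequenced from 13 mouse tumors, all from females. The 9 GEM-BCC tumors were intradermal and arose in 7 Ptch1+/- K14-CreER2 p53fl/fl mice after 3 injections of 300 µg tamoxifen and an X-ray dose of 4 Gy. A single mouse gave both GEM2 and GEM3, and another gave both GEM7 and GEM8. The 4 Tp-BCC tumors each grew in a Ptch1+/-p53fl/fl host after 2000000 tumor cells were placed under the skin of the right flank. Mice of both groups thus carried the Ptch1 and floxed p53 alleles, and the labels give the Cre transgene for the GEM-BCC strain. Ages were not given in the sources used here. In the induced model the promoter of K14, a basal keratin, drives Cre, so recombination begins in cells that express it. All Tp-BCC tumors descend from 1 GEM-BCC tumor, so they are replicates of a single transplanted tumor. The labels put every GEM-BCC library in batch 1 and every Tp-BCC library in batch 2, so model and batch cannot be told apart. Total counts per library ran from 28075317 to 32629102 in the induced and from 15388027 to 17494912 in the transplanted tumors, and 3 counts corresponded to 0.0857 to 0.109 and 0.177 to 0.214 CPM (counts scaled to library size). Among the Tp-BCC tumors, log2 CPM followed the GC content of genes upward in TP2 and TP4 (Spearman 0.594 and 0.591) and downward in TP1 and TP3 (−0.389 and −0.473). Among the GEM-BCC tumors it followed GC content upward in GEM1 (0.365) and downward in the others (−0.312 to −0.15). The epithelial markers Epcam (154 ± 43.8 CPM in GEM-BCC and 135 ± 19.6 in Tp-BCC, SD, n = 9 and 4) and Cdh1 (334 ± 130 and 414 ± 119) were present in both models. They belong to a list of 11 genes, of which 3 (Cldn4, Ovol1 and Perp) were lower in Tp-BCC by the test below. The median log2 fold change of its 10 tested genes was −0.84.

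The keratin genes differed unevenly between the models. Of 36 tested keratin genes, 11 were called lower in Tp-BCC and 0 were called higher, where a call required an adjusted p under 0.05 from edgeR's quasi-likelihood test over all 14390 tested genes and a log2 fold change beyond 2. Among all tested genes 3.21% were called lower and 2.36% higher, against 30.6% of the keratins called lower. The called genes were the bulge keratins Krt15 and Krt19, the follicle and suprabasal keratins Krt79, Krt10 and Krt77, the stress keratins Krt6a and Krt16, the companion and IRS keratins Krt75, Krt71 and Krt73, and Krt4, a keratin of mucosal epithelia. Krt5, Krt14 and Krt17, which made up most of the keratin mRNA, were not among them. Without the fold threshold 11 keratins still passed the adjusted p, a limit that 19.4% of all tested genes passed, and DESeq2 called 12 lower and 0 higher. At an unadjusted edgeR p under 0.05, 18 were lower and 1 was higher, and the share of all tested genes at this limit was not counted. Of the 36 genes 31 had a negative log2 fold change, as did 7400 of the 14390 tested genes. The median of the 36 keratins was −2.06, or −1.14 with 3 counts per library in place of Tp-BCC counts of 3 or fewer. The median over all tested genes was −0.03. Among type II genes 7 of 18 tested were called and among type I genes 4 of 18, a difference that was not tested. No Tp-BCC tumor reached the lowest GEM-BCC tumor for 6 of the 36 keratins, which was so for 4.45% of all tested genes.

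**Figure D1:**
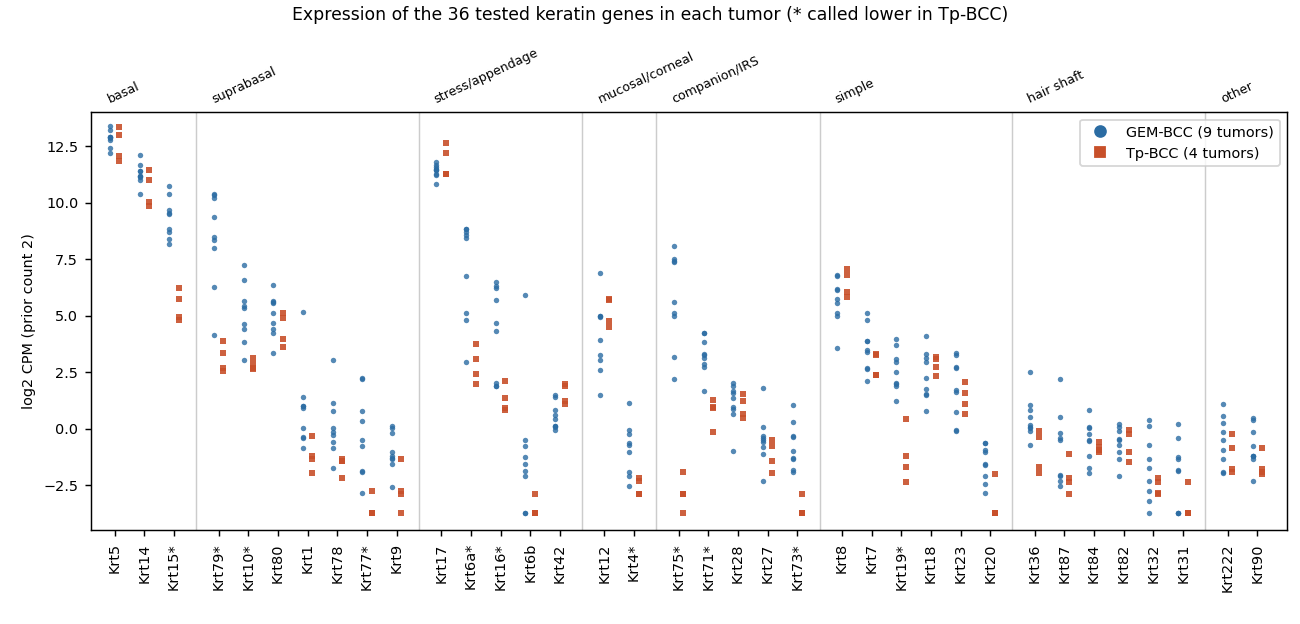
Log2 CPM (vertical axis, prior count 2) of the 36 tested keratin genes in 9 GEM-BCC tumors (blue circles) and 4 Tp-BCC tumors (orange squares), grouped by site of expression, with an asterisk on the 11 called genes. The squares of Krt5, Krt14, Krt17 and Krt8 overlap the circles in part, whereas those of Krt15, Krt79, Krt75, Krt71, Krt73 and Krt19 lie below all circles.

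The total amount of keratin mRNA overlapped between the models. Summed keratin CPM was 14885 ± 2399 in GEM-BCC (12129 to 18870, n = 9) and 12618 ± 6061 in Tp-BCC, with 7994, 15230, 7301 and 19947 in TP1 to TP4. As a share of all counts this was 1.51% ± 0.25 and 1.17% ± 0.415, and the groups overlapped. The makeup of this mRNA differed. Krt5, Krt14 and Krt17 together took 77.2% to 93.5% of keratin CPM in GEM-BCC (median 90.9%), and 97.8%, 97.9%, 97.7% and 98.2% in TP1 to TP4, so every Tp-BCC tumor was above every GEM-BCC tumor. Suprabasal keratins took 4.6% ± 3.74 in GEM-BCC and 0.333% ± 0.0569 in Tp-BCC, with GEM3 (0.369%) inside the Tp-BCC range. Most of this class in GEM-BCC was Krt79, with 614 of a mean sum of 710 CPM, against 9.29 of 40.3 in Tp-BCC. Companion and IRS keratins took 0.139% to 2.19% in GEM-BCC against 0.0268% to 0.0464% in Tp-BCC, without overlap. Here Krt75 gave 102 of a mean sum of 117 CPM in GEM-BCC, and 0.0779 of 4.3 in Tp-BCC. Per kilobase of transcript, type II keratins stood to type I keratins at 1.03 ± 0.243 in the induced tumors and 0.839 ± 0.0432 in the transplanted ones, within the GEM-BCC range of 0.667 to 1.37. These sums were not tested, since their members were chosen with earlier results of the same data known.

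**Figure D2:**
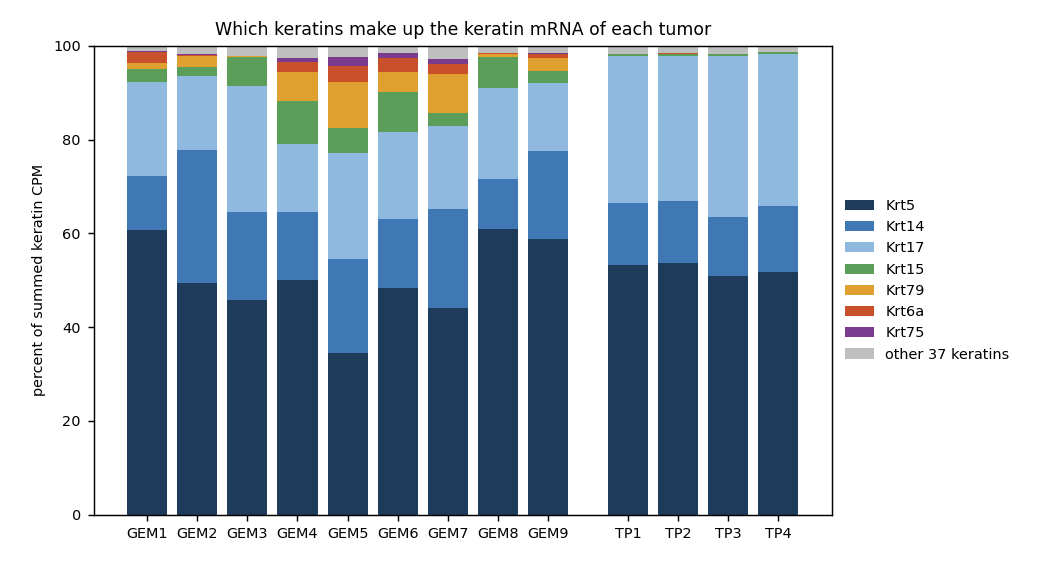
Percent of summed keratin CPM (vertical axis) taken by 7 keratins and by the other 37 in each tumor, 9 GEM-BCC on the left and 4 Tp-BCC on the right. In Tp-BCC the Krt5, Krt14 and Krt17 segments reach 97.7% to 98.2%, and in GEM-BCC 77.2% to 93.5%.

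Basal keratins split. Krt5, the type II keratin of basal cells, had the highest level per kilobase of all keratins (3414 CPM per kilobase in GEM-BCC and 3015 in Tp-BCC). Its CPM ran from 4679 over a median of 7577 to 10690 in GEM-BCC, and TP1 to TP4 had 4260, 8165, 3725 and 10345. The models overlapped, with TP1 and TP3 below all GEM-BCC tumors and TP2 and TP4 within their range, and the log2 fold change of −0.18 (SE 0.29, edgeR adjusted p = 0.687) did not pass. Krt14, its type I partner, had 1329, 2348 and 4377 CPM as the lowest, median and highest of GEM-BCC and 1052, 2034, 918 and 2802 in TP1 to TP4 (−0.61, SE 0.33, adjusted p = 0.204). Krt5 exceeded Krt14 by 3.21 ± 1.44 times in GEM-BCC and 3.95 ± 0.175 times in Tp-BCC, and these ratios overlapped.

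Krt15, a type I keratin of basal cells and of stem cells in the hair follicle bulge, was the 4th keratin per kilobase in GEM-BCC and the 5th in Tp-BCC, and fell. It had 290 CPM in the lowest GEM-BCC tumor (GEM2), a median of 716 and 1707 in the highest (GEM4), against 27.6, 53.9, 30.9 and 74.1 in TP1 to TP4. No Tp-BCC tumor came near the GEM-BCC range (log2 fold change −4.03, SE 0.56, adjusted p = 2.08e-04). Relative to Krt5 of the same tumor Krt15 stood at 0.0379 to 0.181 in GEM-BCC against 0.00648 to 0.00831 in Tp-BCC. Krt19, grouped with the simple keratins but also known from the bulge, had 2.29, 5.6 and 15.6 CPM as the lowest, median and highest of GEM-BCC, and 0.235, 1.29, 0.12 and 0.357 in TP1 to TP4. It fell as well (−3.83, SE 0.72, adjusted p = 0.00213), again without overlap, and its log2 fold change was −4.94 without TP2. Krt15 and Krt19 stand next to each other in the type I cluster, and GEM2 was the lowest induced tumor for both.

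Among keratins of stress and of skin appendages, Krt6a and Krt16 fell and Krt17 was not called. Krt17, a type I keratin of the hair follicle known for its presence in BCC, had 1791, 2787 and 3528 CPM as the lowest, median and highest of GEM-BCC and 2507, 4710, 2494 and 6442 in TP1 to TP4. The ranges overlapped and the log2 fold change of 0.54 (SE 0.26, adjusted p = 0.147) did not pass. The ratio of Krt14 to Krt17 was 0.551 to 1.79 in GEM-BCC and 0.42, 0.432, 0.368 and 0.435 in TP1 to TP4, without overlap. Krt6a, induced in wounded and hyperproliferative epidermis and present in the companion layer, had 7.72, 343 and 462 CPM as the lowest, median and highest of GEM-BCC and 3.83, 8.29, 5.33 and 13.2 in Tp-BCC (−5.02, SE 1.07, adjusted p = 0.00477). Only GEM3 lay within the Tp-BCC range. Krt16, its type I partner, had 3.6, 25.6 and 89.2 CPM in GEM-BCC and 1.82, 2.51, 1.68 and 4.21 in Tp-BCC (−3.94, SE 0.98, adjusted p = 0.0117). GEM2, GEM3 and GEM8 lay within the Tp-BCC range for Krt16, and the other 6 induced tumors were above it.

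Krt6b could be measured mainly in 1 tumor. It had 60.9 CPM in GEM7, at most 0.638 in the other induced tumors and at most 0.0589 in Tp-BCC, and was not called (−8.42, SE 3.12, adjusted p = 0.0694). Of the runs of 100 bases in its transcript 30.1% also occur in that of Krt6a, so counts of this pair may have been divided between them. Krt16 shares 21.1% of its runs with Gm11597. Krt42, the type I gene next to Krt17, had 0.873 to 2.75 CPM in GEM-BCC against 2.06 to 3.85 in Tp-BCC (0.97, SE 0.39, adjusted p = 0.089), the highest log2 fold change of the family and not past the threshold.

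Of 7 tested suprabasal keratins 3 fell and 0 rose. Krt79, a type II keratin of the infundibulum and of the sebaceous duct, was the 5th keratin per kilobase in GEM-BCC and the 10th in Tp-BCC. Its lowest, median and highest CPM in GEM-BCC were 17.6 (GEM3), 362 and 1320 (GEM5), and TP1 to TP4 had 5.83, 14.8, 6.28 and 10.3. The groups did not overlap, though GEM3 exceeded TP2 only by a factor of 1.19, and the log2 fold change was −6.05 (SE 1.07, adjusted p = 0.00138). Krt10, the type I keratin of the spinous layer, had 8.04, 40.3 and 150 CPM as the lowest, median and highest of GEM-BCC and 6.18, 7.26, 6.4 and 8.64 in Tp-BCC (−2.80, SE 0.68, adjusted p = 0.0104). GEM8 lay within the Tp-BCC range, and the others above it. Krt1, the usual type II partner of Krt10, was scarce. It had 36.1 CPM in GEM7, 0.479 to 2.6 in the other induced tumors and 0.18 to 0.714 in Tp-BCC (−3.74, SE 1.32, adjusted p = 0.0584, called without GEM8 at −3.90, and −1.82 without GEM7). It was also called with counts summed per mouse (−3.29) and with the GC correction (−3.9). Per kilobase it stood at 2.13 CPM in GEM-BCC against 37.4 for Krt10, or 0.563 against 33.2 without GEM7. Krt2, the partner of Krt10 in upper layers, had at most 27 counts in any tumor and was not tested. Krt77 had 0.0638, 0.628 and 4.64 CPM in GEM-BCC and 1 count in all 4 Tp-BCC tumors together (−6.19, SE 1.58, adjusted p = 0.0135). The ratio of its summed counts per depth, GEM-BCC over Tp-BCC, was 95.3 with a 95% Clopper-Pearson interval of 17 to 3774, and such intervals cover counting error only. The single count was in TP4, and without it the fitted value was −8.41. Krt78 (−2.70, adjusted p = 0.0527, but called by DESeq2 and without GEM1, GEM2 or GEM3 at −2.87, −2.83 and −2.90, and −1.82 without GEM4), Krt9 (−2.12, adjusted p = 0.078, called without TP2 at −3.46) and Krt80 (−0.70, adjusted p = 0.297) were not called. With counts summed per mouse Krt78 was called (−2.905). With the GC correction Krt78 (−2.947) and Krt9 (−2.37) were called.

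**Figure D3:**
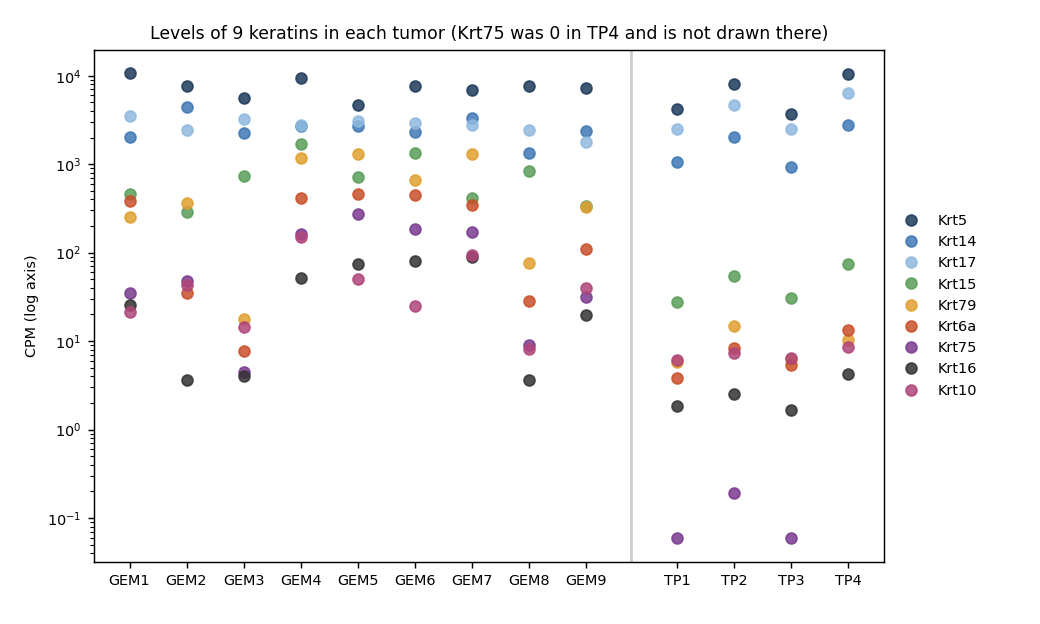
CPM on a log axis of 9 keratins in each tumor, GEM-BCC left of the vertical line and Tp-BCC right of it. Krt5, Krt14 and Krt17 have their lowest values at 3725, 918 and 1791 CPM, while Krt79 runs from 17.6 to 1320 and Krt75 from 4.46 to 274 CPM across GEM-BCC, with Krt75 at most 0.193 CPM in Tp-BCC.

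Of 5 tested companion-layer and IRS keratins 3 fell, each without overlap between the models. Krt75, the type II keratin that marks the companion layer between the outer and the inner root sheath, had 4.46 (GEM3), 48 and 274 CPM (GEM5) as the lowest, median and highest of GEM-BCC, or 141 to 9591 counts. In TP1 to TP4 it had 0.0589, 0.193, 0.0598 and 0 CPM, 5 counts in all. The fitted log2 fold change was −10.25 (SE 1.51, adjusted p = 3.35e-04), a value that depends on the prior count and was −11.15 without TP2, and the ratio of summed counts per depth was 1338 (95% interval 573 to 4121). Krt71, a type II keratin of the IRS, fell from 3.09, 9.41 and 18.9 CPM in GEM-BCC to 1.88, 2.31, 0.838 and 1.78 in Tp-BCC (−2.65, SE 0.49, adjusted p = 0.0019), without overlap. Krt73, of the IRS cuticle, had 0.192 to 1.97 CPM in GEM-BCC and a single count in TP3 (−5.04, SE 1.09, adjusted p = 0.00521, −7.20 without TP3, ratio of summed counts 42.2, 95% interval 7.48 to 1674). Their type I partners were not called. Krt28 had 0.436 to 4.05 CPM in GEM-BCC against 1.29 to 2.78 in Tp-BCC (−0.31, SE 0.47, adjusted p = 0.667), and Krt27 0.128 to 3.38 and 0.18 to 0.642 (−1.12, SE 0.72, adjusted p = 0.282). Krt25 had at most 26 counts and was not tested. Summed over the 6 members, 17.3 to 297 CPM in the induced tumors stood against 2.75 to 5.4 in Tp-BCC.

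Hair-shaft keratins, which harden the cortex and cuticle of the hair, were scarce in both models. The 12 members summed to 5.36 ± 2.58 CPM in GEM-BCC (2.71 to 10.8) and 2.07 ± 0.581 in Tp-BCC (1.41 to 2.83), and the ranges overlapped. Of these, 6 were tested, and 0 were called by edgeR or by DESeq2, with 2 at an unadjusted edgeR p under 0.05 (share of all tested genes not counted). Their log2 fold changes ran from −3.15 for Krt31 to −0.07 for Krt82. Of type I genes Krt31 (adjusted p = 0.151), Krt32 (adjusted p = 0.21) and Krt36 (−1.76, adjusted p = 0.0782, called with the GC correction at −2.12) had at most 5.53 CPM, and of type II genes Krt87 (−2.39, adjusted p = 0.131), Krt84 (−0.53, adjusted p = 0.522) and Krt82 (adjusted p = 0.933) at most 4.46 CPM. The other 6 (Krt33a, Krt39, Krt83, Krt85, Krt86 and Krt88) had at most 35 counts in any tumor. Several of these genes share sequence, among them Krt86 with Krt81 (22.8%) and Krt33a with Krt34 (12.4%). Another 10 keratin rows had values in GEM-BCC tumors alone, and Krt35, a keratin of the hair cortex, reached 67 counts in GEM5.

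Of 6 simple-epithelial keratins only Krt19, given above, was called. Krt8 had 11.9, 53.2 and 112 CPM as the lowest (GEM4), median and highest (GEM2) of GEM-BCC and 65.4, 110, 56 and 133 in TP1 to TP4 (0.60, SE 0.44, adjusted p = 0.344). Krt18, its partner, had 1.65 to 17 CPM in GEM-BCC against 4.89 to 8.85 in Tp-BCC (0.15, SE 0.51, adjusted p = 0.866). Krt8 exceeded Krt18 by 11.4 ± 6.28 times in GEM-BCC and 12.5 ± 2.83 times in Tp-BCC. Krt8 shares 16.9% of these runs with the pseudogene Krt8-ps. Krt7, of ducts and glands, had 4.19 to 35 CPM and 5.15 to 9.78 (−0.97, SE 0.51, adjusted p = 0.193). Krt23 (−0.83, adjusted p = 0.381) and Krt20, known from Merkel cells and gut (−2.66, adjusted p = 0.0584, called without GEM4 at −2.79 and without TP1 at −6.14), were not called. Of the mucosal and corneal keratins, Krt12, the corneal type I keratin, had 2.75 to 120 CPM in GEM-BCC, highest in GEM4, and 22.4 to 53 in Tp-BCC (0.44, SE 0.72, adjusted p = 0.693). Krt4 had 0.0986, 0.538 and 2.13 CPM as the lowest, median and highest of GEM-BCC and 1 or 2 counts in each Tp-BCC tumor (−2.67, SE 0.87, adjusted p = 0.0418, ratio of summed counts 6.73, 95% interval 3.03 to 18.6). The call of Krt4 was lost in 10 of 13 fits that left out 1 tumor (adjusted p from 0.051 to 0.0929) and held without GEM1, GEM3 or GEM8. Krt222 (−0.93, adjusted p = 0.354) and Krt90 (−1.15, adjusted p = 0.211) belong to no class here and were not called.

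Type I keratin genes lie in order on chromosome 11 and type II genes on chromosome 15, where Krt18 closes the row. Called genes stood beside uncalled ones in both. On chromosome 15, Krt75, Krt6b and Krt6a stand in line before Krt5 and Krt71 after it, and of these 5 neighbours Krt5 alone had a log2 fold change above −2. On chromosome 11, Krt16 (−3.94) lies between Krt14 (−0.61) and Krt17 (0.54).

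**Figure D4:**
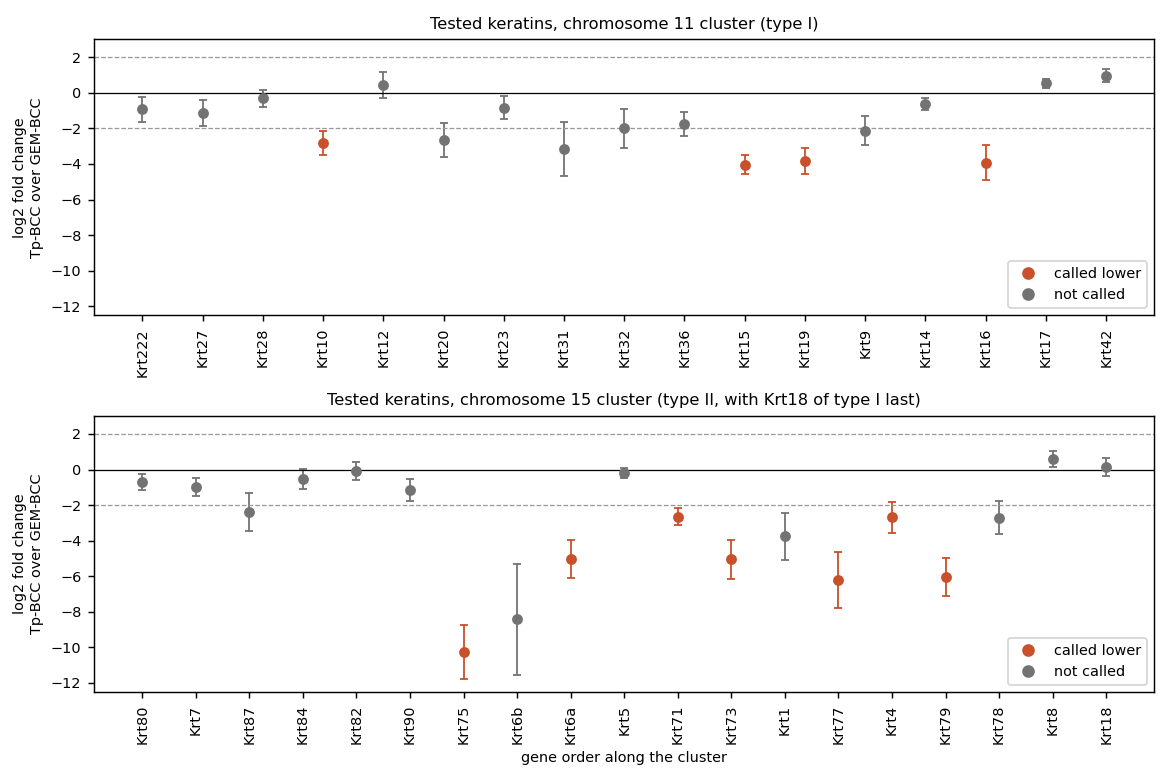
Log2 fold change of Tp-BCC over GEM-BCC (vertical axis, bars are 1 SE) for tested keratins in their order along chromosome 11 (top) and chromosome 15 (bottom), with called genes in orange and dashed lines at the fold threshold. Krt5 at −0.18 stands between Krt6a at −5.02 and Krt71 at −2.65.

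The promoters of 4 keratins are shown because they span the results: Krt5, not called, beside its cluster neighbour Krt75, nearly absent from Tp-BCC, and the suprabasal Krt79 and Krt10. Each is the 120 bases before the gene start from RefSeq (GRCm38.p6, minus strand), written 5′ to 3′, with a TATA-type motif in capitals. The motifs searched on both strands of 300-base promoters (250 before and 50 after the start) were TATAAA and its variant ATAAAAG, the AP-1 motif TGANTCA and the GLI motif GACCACCCA. ATAAAAG was added after the sequences had been viewed.
Krt5, chr15:101712906-101713025: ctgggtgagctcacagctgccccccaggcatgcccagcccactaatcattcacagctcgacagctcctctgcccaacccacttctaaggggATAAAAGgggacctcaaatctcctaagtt
Krt75, chr15:101573905-101574024: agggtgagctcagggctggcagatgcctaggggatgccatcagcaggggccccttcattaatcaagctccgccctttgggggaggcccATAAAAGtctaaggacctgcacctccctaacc
Krt79, chr15:101940325-101940444: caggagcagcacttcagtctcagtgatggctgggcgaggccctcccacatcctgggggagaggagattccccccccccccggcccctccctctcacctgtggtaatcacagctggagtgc
Krt10, chr11:99389365-99389484: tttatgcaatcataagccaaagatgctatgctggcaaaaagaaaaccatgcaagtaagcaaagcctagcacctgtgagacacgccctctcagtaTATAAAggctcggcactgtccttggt

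Krt5 and Krt75 both held ATAAAAG, beginning 29 and 32 bases before the start, and Krt10 held TATAAA at 26 bases before it. In Krt79 none of the 4 motifs was found in the window. Promoters were listed for 36 of the 54 keratins, and 52.8% of these held TATAAA and 36.1% ATAAAAG, against 14.2% and 5.71% of 27025 promoters. The AP-1 motif occurred in 1 keratin promoter (2.78%, that of Krt13) and in 7.93% of all, and the GLI motif in 0 and in 0.244%. A match is a run of letters and was not tested as a binding site.

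Some keratins varied widely among the induced tumors and others little. Across GEM-BCC the highest tumor exceeded the lowest by 1.97 times for Krt17, 2.28 times for Krt5 and 3.29 times for Krt14, but by 18.6 times for Krt10, 24.8 times for Krt16, 59.9 times for Krt6a, 61.5 times for Krt75 and 75.1 times for Krt79. GEM4, GEM5, GEM6 and GEM7 were the highest 4 for Krt75, Krt79, Krt16, Krt78, Krt32 and Krt23. GEM3 and GEM8 were the lowest 2 for Krt75, Krt79, Krt6a, Krt10, Krt77 and Krt87. Krt15 had another order, with GEM4, GEM6, GEM8 and GEM3 highest. Over the 36 genes the median SD of log2 CPM was 1.04 in GEM-BCC against 0.629 in Tp-BCC, 4 tumors of 1 origin. For the abundant Krt5, Krt14 and Krt17 the order was reversed. Their SD was 0.358, 0.474 and 0.289 in GEM-BCC against 0.715, 0.767 and 0.683 in Tp-BCC.

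Tumors of the same mouse also differed. Krt79 was 20.6 times and Krt75 10.8 times higher in GEM2 than in GEM3, while Krt28 was 9.29, Krt36 5.86, Krt19 5.75 and Krt15 2.56 times higher in GEM3. In GEM7 relative to GEM8 Krt79 was 17.1, Krt75 18.9, Krt6a 12.1, Krt16 24.3 and Krt1 75.4 times higher. Krt5 differed by 1.38 times in the first of these pairs and, with GEM8 the higher, by 1.09 times in the second. In bulk tumors, fewer cells of a type and less RNA per cell cannot be told apart. Summed epithelial markers (11 genes, all with a value) were lowest in GEM3 (1480 CPM) and highest in GEM4 (5189 CPM), and 2956 in GEM7 stood against 2153 in GEM8. Their part in these differences was not tested.

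Other genes of the same programme were taken from lists written from general knowledge. Of all tested genes 3.21% were called lower and 2.36% higher, the shares to set beside the calls in these lists and the marker lists. A single call in a list is not read as a result about the list. Some genes, among them Ovol1, Msx2 and Tchh, also stand on another of the lists or marker lists, so their calls recur. Of 14 regulators of epidermal keratins, 13 had a negative log2 fold change, 3 were called lower and 0 higher (median −1.02, against −0.03 over all tested genes). The called genes were Grhl3 (−4.74, SE 0.84, adjusted p = 0.00133), Ovol1 (−5.05, SE 0.94, adjusted p = 0.00203) and Zfp750 (−2.79, SE 0.62, adjusted p = 0.00613), transcription factors of terminal differentiation. Klf4, a factor of terminal differentiation and the 14th member, was higher in Tp-BCC at 1.57 (SE 0.19, adjusted p = 5.72e-05), short of the fold threshold, with 63.3 ± 11.6 CPM in GEM-BCC and 187 ± 41.5 in Tp-BCC. Trp63, which sets the basal program, was not called (−0.83, adjusted p = 0.112), nor was Cebpa (−0.70, adjusted p = 0.126). Of 16 tested regulators of hair lineages, 4 were called lower and 1 higher (median −0.28). Foxn1 (−3.47, adjusted p = 0.0204), a regulator of hair keratins, Msx2 (−6.63, adjusted p = 6.21e-05), Runx1 (−2.46, adjusted p = 2.17e-05) and Cux1 (−2.53, adjusted p = 1.93e-04) fell, and Lef1, the Wnt effector of the hair matrix, rose (2.99, SE 0.30, adjusted p = 1.01e-05). The best-expressed members, Lhx2, Tbx1 and Nfib, had log2 fold changes of 0.32, −0.09 and −1.49 and were not called. Of 9 tested terminal IRS and hair-shaft genes outside the keratins, 3 were called lower (Msx2, Dsc2 and Pinlyp) and 0 higher (median −1.46), and DESeq2 also called Tchh. Of 16 tested partners of keratin filaments in desmosomes, hemidesmosomes and cornified cells, 0 were called lower and 1 higher (median −0.25), the hemidesmosomal collagen Col17a1 (2.00, SE 0.50, adjusted p = 0.012). DESeq2 did not call it (1.98), and it called Tchh, a protein of the IRS and of cornified cells, lower (−2.06, against −2.03 and adjusted p = 0.0565 by edgeR). Of the desmosomal genes, Dsp (−1.63, adjusted p = 0.00724) and Pkp2 (−1.81, adjusted p = 0.00311) passed the adjusted p but not the fold threshold. Plec, Dst and Jup, the best expressed, had 0.33, −0.83 and −0.03.

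Markers of other cell types moved with the model in some lists. All 5 tested adipocyte markers of 8 were called higher by edgeR and 2 by DESeq2, which gave no adjusted p for the other 3 (summed 0.514 to 3.54 CPM in GEM-BCC against 21 to 306 in Tp-BCC), and Retn was at 0 in all GEM-BCC tumors. Skeletal muscle markers (6 of 10 tested, 0 called) summed to 137 CPM in TP4 and at most 12.9 elsewhere. Of 10 epithelial markers tested 3 were called lower (Cldn4, Ovol1 and Perp), and the list summed to 1480 to 5189 and 1612 to 2176 CPM. Fibroblast markers (10 of 10 tested, 0 called) summed to 12210 to 49140 and 14700 to 29220 CPM, and sebaceous gland markers (7 of 11 tested, 0 called) to 180 to 504 and 291 to 678. Most of the sebaceous sum was Fasn, with a mean of 294 CPM in GEM-BCC and 413 in Tp-BCC. Of the 7 tested sebaceous genes 5 had a negative log2 fold change. Immune (8 of 10 tested, 0 called), endothelial (8 of 8, 0 called) and melanocyte markers (2 of 6, 0 called) summed to 63.2 to 294, 109 to 271 and 0.837 to 2.29 CPM in GEM-BCC, and to 154 to 299, 357 to 438 and 0.658 to 1.74 in Tp-BCC. Of Merkel cell markers (3 of 7 tested) Sox2 was called higher, with sums of 5.2 to 17.6 and 11.3 to 27.5 CPM. In the lists with 0 calls by edgeR, DESeq2 also called 0 (with no adjusted p for 1 muscle gene). At an unadjusted edgeR p under 0.05, 4 fibroblast, 5 endothelial, 3 muscle and 1 immune genes were higher in Tp-BCC. At that limit 2 fibroblast genes and 1 sebaceous gene were lower, with 0 melanocyte genes. The share of all tested genes at the unadjusted limit was not counted, so these counts have no background to be read against. By edgeR adjusted p alone, 4 endothelial, 4 fibroblast and 1 immune genes passed as higher and 2 fibroblast genes as lower. Of all tested genes 19.4% passed that adjusted p. The part of these cells in the keratin values was not tested. Without TP4 10 keratins were called lower, and without TP2 11.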

How the data were processed

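Tumors were excised, RNA was extracted with TRIzol, and poly(A) RNA was enriched with oligo(dT) beads and sequenced on a DNBSEQ platform. The authors cleaned reads with SOAPnuke, aligned them with Bowtie2 2.3.4.3 (versions per the submitters' processing notes) to GRCm39 transcripts and deposited expected counts per gene from RSEM 1.3.1, neither rounded nor normalized. RSEM divides reads shared by similar genes, which touches Krt6a with Krt6b and the hair-shaft keratins. Samples were grouped by the condition label.

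Expected counts were rounded. A gene with a value in all 13 tumors entered the test with 10 or more counts in 4 or more tumors. Tp-BCC was compared with GEM-BCC in edgeR 4.0.16 (R 4.3.3, TMM scaling, quasi-likelihood F test, robust dispersions, no covariate), with Benjamini-Hochberg adjustment over 14390 genes and a call at an adjusted p under 0.05 and a log2 fold change beyond 2. The study used DESeq2, here an alternative (1.42.0). SE is the size of the log2 fold change divided by the square root of F. CPM used TMM-scaled library sizes and log2 CPM a prior count of 2. On simulated counts of the 13 tumors (14390 genes, 200 changed) 97% of log2 changes of 3 and 100% of 5 were called, with 1 unchanged gene. The changed genes were drawn only from genes above a minimum mean count, so these shares do not cover the scarcest tested keratins, such as Krt31. Lengths and GC content came from GENCODE for GRCm38 (43 of 44 keratins). Nothing states that tumors of 1 mouse are independent, so p-values may in part measure spread within a mouse.

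The members, classes and lists were chosen with earlier results of these data known. Named genes were every called keratin, the 10 highest per kilobase, their filament partners, and from each list the called genes and up to 3 of the best expressed, though not all of these are given for marker lists and 1 gene that the rule names is not reported here. Alternatives were other scaling, filters, dispersions, fold thresholds and prior counts, DESeq2, counts summed per mouse, a GC correction, a replicate block, unlisted keratins set to 0, leaving out each tumor, and, added after the data were seen, TP1 and TP3 or TP2 and TP4 as the Tp-BCC group.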

Additional observations from a re-analysis of the deposited data

Results flagged for a closer look

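Of 88 sets of log2 values 9 held a tumor far from the rest of its group. Chance flags about 5% of sets without tied values, a rate that does not hold for 5 of the 9 (below). In each model the sets were log2 CPM of the 36 tested keratins, summed CPM of all keratins and of classes, and the ratio of type II to type I. Keratins that were not tested were not screened. In GEM7 Krt6b stood at 5.93, against −3.73 to −0.49 in the other induced tumors, and Krt1 at 5.18, against −0.85 to 1.42. GEM2 was low for Krt28 (−0.97, others 0.66 to 2.04). In Tp-BCC, TP4 was low for Krt78 (−2.20, others −1.44 to −1.33). The remaining 5 cases were 1 to 3 counts in a Tp-BCC tumor beside 3 without any (log2 CPM −3.73): Krt73 in TP3 (−2.89), Krt6b in TP1 (−2.90), Krt77 in TP4 (−2.77), Krt31 in TP1 (−2.37) and Krt20 in TP1 (−1.99). With 3 tumors tied, any count in the other tumor is flagged, so these 5 flags carry no information beyond the counts.

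Some keratin rows had no value in Tp-BCC tumors and entered no comparison, yet were counted in GEM-BCC above 3 counts. Krt35 reached 67 counts in GEM5 and was above 3 counts in 7 induced tumors. Krt24 reached 21 counts in GEM3, Krt72 reached 6 in GEM6, Krt13 reached 4 in GEM7 and Krt26 reached 4 in GEM5.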

How the results depend on the processing

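The count of 11 keratins called lower was 10 to 12 when 1 tumor was left out, 11 under RLE or library-size scaling, without a filter, with dispersions that were not robust and at lower fold thresholds, 12 with DESeq2, 13 with counts summed per mouse and 15 with the GC correction, and 0 were called higher in every setting. With a filter of 10 counts in 10 tumors it was 7 (also by adjusted p alone), since that filter removes genes absent from Tp-BCC. With TP1 and TP3 alone as Tp-BCC it was 6 (7 by adjusted p alone), and with TP2 and TP4 alone 9 (11 by adjusted p alone). Over the alternatives Krt17 reached a log2 fold change of 1.01 and Krt42 of 1.32, short of the fold threshold. The lowest adjusted p (edgeR or DESeq2) was 0.00482 for Krt17 and 0.0396 for Krt42, each with a positive log2 fold change. With the replicate block, which uses tumors 1 to 4 of each model, it was 3 (also by adjusted p alone) against 7 for these tumors unblocked. The numbers did not pair the tumors (same-number correlations −0.381 to −0.101, 0 of 4 pairs over 0.1), since they come from different mice.

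Of 823 log2 fold changes under alternatives, 770 kept their direction and side of the threshold, 23 lost it, 15 gained it and 15 changed sign, all 15 in genes not called. These were Krt28 at 0.054, Krt5 at 0.31 (TP2 and TP4 alone), Krt12 at −0.20, Krt17 at −0.15, Krt82 at 0.058 and Krt18 at −0.18 (TP1 and TP3 alone), Krt18 at −0.14 (GC correction) and Krt23 at 0.068 (replicate block). Leaving out 1 tumor gave −0.54 to 0.019 for Krt5, −0.34 to 0.10 for Krt82 and −0.024 to 0.47 for Krt18. The cause was not tested. The median SD of log2 CPM was 1.09 and 0.937 in GEM-BCC at prior counts of 0.5 and 5 (0.969 to 1.09 leaving out 1 tumor), and 0.699 and 0.533 in Tp-BCC (0.529 to 0.642). Summed CPM of all keratins and of the basal, suprabasal, stress, companion, simple and hair-shaft classes moved by less than the spread between tumors under RLE or library-size scaling, with unlisted keratins at 0 and leaving out each tumor.

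For 8 tested keratins no Tp-BCC library held more than 3 counts, so their fold changes are imprecise. The models differ in batch, site and origin, which cannot be told apart.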
